A study of Mus musculus with 27 samples.

Results

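Zinc finger protein genes named Zfp or Zscan were followed in mouse primary cortical cells, in which 158 of the 346 entries with such a symbol reached a level of at least 2 FPKM in at least 3 of 18 libraries from triptolide-treated cells. FPKM is the number of sequenced fragments of a gene, set against the length of its transcripts and the total of the library. The members were chosen by these levels, so their levels are described here and not tested. They comprise 153 Zfp and 5 Zscan entries among the 59489 entries of the expression table, and 4 of them are merged with a neighbouring gene under a joint symbol. Just inside the threshold stood Zfp770, Zfp941 and Zfp563, for which the third highest level was 2.02, 2.02 and 2.03 FPKM. Just outside stood Zfp626, Zfp763 and Zfp41, at 1.983, 1.996 and 1.9998 FPKM. Of the 188 entries that were not members, 1 was listed at 0 in every library.

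The cells were wild-type cortical cells of embryonic day 16.5 mice, kept in culture for 14 days, and each of the 9 groups held 3 libraries of polyadenylated RNA. Every group received an inhibitor of transcription, also the unstimulated ones, so no group shows untreated cells. In 6 groups this was triptolide (1 µM, 3 h), which blocks initiation by RNA polymerase II, with either no stimulus or bicuculline (20 µM, 1 h), and RNA was taken from nuclei, cytosol or whole cells. In the other 3 groups it was DRB (50 µM, 2 h), which blocks elongation, with no stimulus, bicuculline (20 µM, 1 h) or BDNF (50 ng/mL, 1 h), and RNA was taken from whole cells. Bicuculline blocks GABA-A receptors and so raises network activity, and BDNF is a neurotrophin that acts through the TrkB receptor. No source used here gives strain, sex or the pooling of embryos, and replicates may share cultures, so the p-values measure the spread between these libraries. The series title places the comparisons in a study of intron retention, and the table used here gives 1 level per gene, with no separate value for introns.

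C2H2 zinc fingers are short protein folds in which a pair of cysteines and a pair of histidines hold a zinc ion, and rows of them read DNA or, in some proteins, RNA. Many C2H2 proteins of vertebrates carry a KRAB domain, which recruits the corepressor Trim28 and through it the methyltransferase Setdb1 and heterochromatin proteins to retroelements and imprinted loci. Others carry a SCAN domain, through which they pair with each other. A smaller group of Zfp genes, named for fingers of other kinds, acts in RNA processing, translation or the cytoskeleton.

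Coding sequences of the annotation were translated and searched for these domains. A KRAB pattern was found in 53 members, a SCAN pattern without KRAB in 10 and neither pattern in 95. Short patterns can miss a domain, and the share missed was not measured. The group with neither domain, here and below, is therefore only the group in which neither pattern was found. The number of C2H2 fingers ranged from 0 to 36, with a median of 9 over the members, 12 in the KRAB group and 8 in the group with neither domain. The following stretches of 78 bases, from the reference genome build mm10 and on the coding strand, each span 1 finger and the linker to the next. They are shown because they belong to the members on which the results turn and because they show how alike such genes can be. Capitals mark the codons of the 2 cysteines and 2 histidines.
Zscan26: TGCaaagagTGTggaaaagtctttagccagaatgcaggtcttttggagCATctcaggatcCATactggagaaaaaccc
Zfp692: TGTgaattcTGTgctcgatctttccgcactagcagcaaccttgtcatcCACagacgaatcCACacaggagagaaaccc
Zfp383: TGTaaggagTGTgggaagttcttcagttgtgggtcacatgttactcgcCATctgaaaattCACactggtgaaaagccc
Zfp57: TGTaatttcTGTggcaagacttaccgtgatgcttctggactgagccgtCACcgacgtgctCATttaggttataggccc
Zfp932: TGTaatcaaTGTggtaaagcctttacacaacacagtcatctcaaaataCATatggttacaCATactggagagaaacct
Zfp970: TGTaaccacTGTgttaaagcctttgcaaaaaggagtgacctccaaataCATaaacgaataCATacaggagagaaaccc
Zfp971: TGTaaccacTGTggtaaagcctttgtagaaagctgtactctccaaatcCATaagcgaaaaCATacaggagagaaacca
The stretches lie in coding exons, of Zscan26 at chr13:21445357-21445434 (minus strand), Zfp692 at chr11:58313983-58314060, Zfp383 at chr7:29914964-29915041, Zfp57 at chr17:37009679-37009756, Zfp932 at chr5:110008837-110008914, Zfp970 at chr2:177475115-177475192 and Zfp971 at chr2:178033006-178033083 (plus strand for these 6). Only fingers of the most common spacing were taken, so the marked codons stand at the same places in the 7 stretches, whereas the bases between them, which include those that set the DNA contacts, differ. Zfp970 and Zfp971, which both lie on chromosome 2, shared 66 of 78 bases (84.6%), and Zfp57 and Zfp932 shared 33 (42.3%). The codons of the canonical linker between C2H2 fingers, searched on the coding strand directly after the last histidine, closed 521 of 1270 finger stretches of the members (41%), with 49.5% in the KRAB group and 31.4% in the group with neither domain, beside 42.7% of 3122 stretches over all Zfp and Zscan entries. For each gene the stretch shown is its first with this linker, or its first stretch where none had it. The presence of the linker in 6 of the stretches shown, and not in that of Zfp57, therefore follows from the choice.

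Such likeness bears on the counting of reads. In 12 members over 10% of the 50-base words of the transcript also occurred in another gene, with the highest shares in Zfp932 (55.5%), Zfp970 (52.2%), Zfp617 (40.8%), Zfp963, merged with Zfp866 (40.4%), Zfp971 (40.0%) and Zfp706 (38.9%). In 94 members no such word was shared. No source used here says how reads that match several genes were counted, so the levels of the 12 are uncertain. The genes also lie close together on the chromosomes: 60 members fell into 23 clusters of at least 3 entries less than 250 kb apart, and 29 of the 158 members lie on chromosome 7.

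Levels of the members were low for most and high for a few. The mean over the 27 libraries ranged from 1.14 to 45.2 FPKM with a median of 4.22, and 94 members stayed under 5 FPKM. Highest was Zfp207, a protein that binds microtubules and the checkpoint protein Bub3, with 53.2, 59.9 and 58.4 FPKM in the 3 nuclear, 34.3, 30.3 and 27.04 in the 3 cytosolic and 41.2, 50.96 and 46.03 in the 3 whole cell libraries of unstimulated triptolide cells. Nuclear values of Zfp207 lay above all cytosolic ones, with whole cells between. Zfp706, a small protein with 1 finger and 1 of the 12 genes of uncertain level, stood at 38.04, 37.8 and 33.03 FPKM in nuclei and 47.7, 45.6 and 40.5 in cytosol, the opposite order with no overlap. Zfp365, whose product binds the schizophrenia-linked protein Disc1, reached 38.7, 30.7 and 36.9 FPKM in nuclei and 34.8, 28.04 and 34.1 in cytosol, and these overlapped. Zfp445, a KRAB protein that guards imprints, reached 35.2, 33.1 and 38.7 and 30.2, 30.4 and 26.7 FPKM, all nuclear values above the cytosolic ones. The means over 27 libraries of these 4 genes were 45.2, 45.0, 37.1 and 34.3 FPKM, and their order was not tested. The close means of Zfp207 and Zfp706 join unlike fractions. In unstimulated triptolide cells Zfp207 stood above Zfp706 in nuclei and below it in cytosol, with no overlap.

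Depth, recovered from the smallest steps of single-exon genes, was about 67600000 to 89500000 fragments in the triptolide and 83400000 to 148000000 in the DRB libraries, and 12056 to 13911 genes reached 1 FPKM. Neuronal markers were high (Tubb3 at 249.9 to 887 FPKM over the 27 libraries) and the astrocyte marker Slc1a3 was present at 210.0 to 329 FPKM. Of the microglial markers, Cx3cr1 and Csf1r stayed at or under 0.489 FPKM. The microglial markers Aif1 and C1qa reached higher levels, at 0.856 to 6.003 and 0.0876 to 4.34 FPKM over the 27 libraries. The labels call the cells primary cortical cells, and markers of neurons, astrocytes and the oligodendrocyte lineage were all present, with some microglial markers at low levels. The nuclear noncoding RNA Meg3 had a mean of 798 FPKM in nuclei and 78.9 in cytosol, and 0 of 5 mRNAs chosen as cytosolic references passed the test between the fractions.

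Nucleus against cytosol in unstimulated cells was the comparison in which the members differed most. Of the 158 members, 101 were higher in the nucleus and 11 higher in the cytosol at a Benjamini-Hochberg adjusted p under 0.05 (limma on log2(FPKM + 0.5), adjusted over 14205 genes), beside 39% and 28% of all genes tested. The median difference of the members was 0.45 on the log2 scale and that of all genes 0.06. The members' share of all FPKM was 0.268 to 0.282% in nuclei, 0.224 to 0.228% in whole cells and 0.168 to 0.190% in cytosol, with no overlap between the fractions. Because FPKM sets each library to the same total, a share says nothing of the amount of RNA in a fraction. With scaling to the median ratio over genes, the median of all genes moved to -0.27, and 69 members were then higher in the nucleus and 39 higher in the cytosol, beside 25.8% and 51% of all genes (median 0.14, which is 0.41 above that of all genes). With quantile normalization 73 were higher in the nucleus and 47 in the cytosol, beside 27.8% and 41.1% (median 0.15, and -0.12 for all genes).

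The rule itself favours nuclear genes, since 17 members passed it only through nuclear libraries and 0 only through cytosolic ones. Among the 131 members that also passed in whole cell libraries, 83 were higher in the nucleus and 11 in the cytosol, with a median of 0.42. Among Zfp and Zscan entries chosen instead by their level in the DRB libraries, 108 of the 178 tested were higher in the nucleus and 13 in the cytosol, with a median of 0.40. With median-ratio scaling these counts were 54 and 35 for the first choice and 72 and 45 for the second, and with quantile normalization 60 and 41, and 69 and 63. Beside these stand 39% and 28% of all genes without scaling, 25.8% and 51% with median-ratio scaling and 27.8% and 41.1% with quantile normalization. Both choices were made after the data were seen. Markers of cell types differed between the fractions as well: the summed level of 3 inhibitory neuron markers was 96.1 to 119 FPKM in nuclei and 227 to 292 in cytosol, and that of 3 excitatory markers 687 to 790.1 and 502 to 547. Of these 3 excitatory markers Camk2a alone was higher in the nucleus (1.27), and Slc17a7 (-0.52) and Neurod6 (-0.61) were higher in the cytosol, as were the 3 inhibitory markers. None of these 6 markers was at 0, and their part in the result was not tested. In bulk RNA fewer cells of a type and less RNA per cell cannot be told apart.

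**Figure D1:**
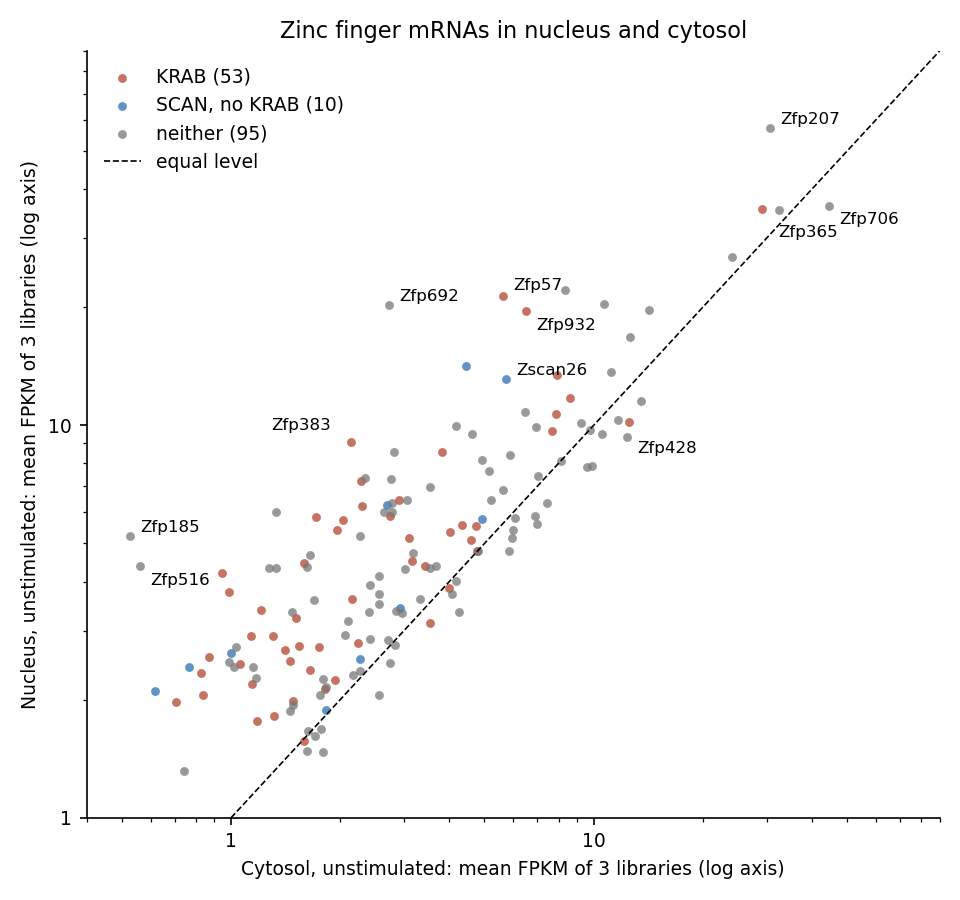
Mean FPKM of the 158 zinc finger genes in cytosol (horizontal, log axis) and nucleus (vertical, log axis) of unstimulated triptolide-treated cells, 3 libraries each, coloured by domain; the dashed line marks equal levels. Most points lie above the line, Zfp692 at 20.2 against 2.73 FPKM, and Zfp706 and Zfp428 lie below it.

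Genes named as largest differences, here and below, were picked only among called members without overlap between the groups. Their separation was therefore fixed by the choice. Zfp692, a C2H2 factor also called AREBP, had the largest difference, with 20.4, 20.1 and 20.1 FPKM in nuclei against 2.74, 2.77 and 2.67 in cytosol. Every nuclear library stood far above every cytosolic one, and whole cells lay between at 7.78, 11.8 and 10.5 FPKM. The log2 difference was 2.68 ± 0.18 (SE; limma adjusted p = 3.15e-09). Zfp185, a LIM-domain protein of the actin cytoskeleton in which the search found no C2H2 finger, had 3.89, 5.05 and 6.70 FPKM in nuclei and 0.535, 0.397 and 0.649 in cytosol. Its difference was 2.45 ± 0.17, and its cytosolic level lies under the 1 FPKM used as the filter on low values. Zfp516, a factor known from brown fat, followed with 4.37 ± 0.137 FPKM (SD, n = 3) in nuclei and 0.561 ± 0.030 in cytosol. Zfp276, with a difference of 1.83 ± 0.15, overlaps Fanca and Vps9d1, and reads of overlapping genes may be counted to either.

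At the cytosolic end differences were small. Zfp428 had 8.92, 10.3 and 8.85 FPKM in nuclei and 12.8, 13.8 and 10.4 in cytosol, a difference of -0.37 ± 0.10 (SE; limma adjusted p = 0.00356). Its lowest cytosolic library was only just above its highest nuclear one. Zfp277, which silences the cell cycle inhibitor locus Ink4a/Arf with Polycomb proteins, showed -0.31, Zfp706 -0.29, Zfp637 -0.29 and the KRAB gene Zfp251 -0.28. Each had cytosolic libraries above all nuclear ones, which the choice of named genes required. Zfp362 (-0.31) lost its call without cytosol replicate 1 (-0.23) or nucleus replicate 3 (-0.20, the higher limma adjusted p of 0.0753).

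By domain, 42 of 53 KRAB members were higher in the nucleus and 1 in the cytosol (median 0.68). Of 10 SCAN members 8 were higher in the nucleus and 0 in the cytosol (median 1.07). Of the 95 with neither domain 51 were higher in the nucleus and 10 in the cytosol (median 0.28). The shares of all genes tested were 39% and 28%. The higher medians of the KRAB and SCAN groups are a description, and no test between the groups was made. The counts by domain, and those by finger number, cluster and role below, include members that passed the rule only through nuclear libraries. They were not repeated with other choices of members. In unstimulated cytosol the median level per library was 1.97 to 2.19 FPKM in the KRAB group and 2.78 to 3.06 in the group with neither domain. With median-ratio scaling the KRAB counts became 30 and 6 (median 0.39) and the SCAN counts 6 and 1 (median 0.78). Those of the group with neither domain became 33 and 32 (median 0.01). With this scaling 25.8% of all genes were higher in the nucleus and 51% in the cytosol. With quantile normalization the median of the group with neither domain turned to -0.01. Zfp383, in a cluster on chromosome 7, stood at 9.12, 8.42 and 9.62 FPKM in nuclei and 2.19, 2.17 and 2.04 in cytosol (1.86 ± 0.09). The paralogs Zfp971 and Zfp970, whose fingers are shown above, had differences of 1.52 ± 0.10 and 1.26 ± 0.24, and both belong to the 12 members whose reads may be shared. Among SCAN genes Zfp397 led, with 14.2 ± 0.507 FPKM in nuclei and 4.43 ± 0.568 in cytosol (1.58 ± 0.11). Zfp24, Zfp446, Zfp444 and Zscan18 formed the low end of that group, with levels in nuclei and cytosol of 2.54 and 2.27, 1.88 and 1.83, 5.76 and 4.91, and 3.43 and 2.93 FPKM. Zfp397, Zfp970 and Zfp971 were chosen after their values were seen.

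**Figure D2:**
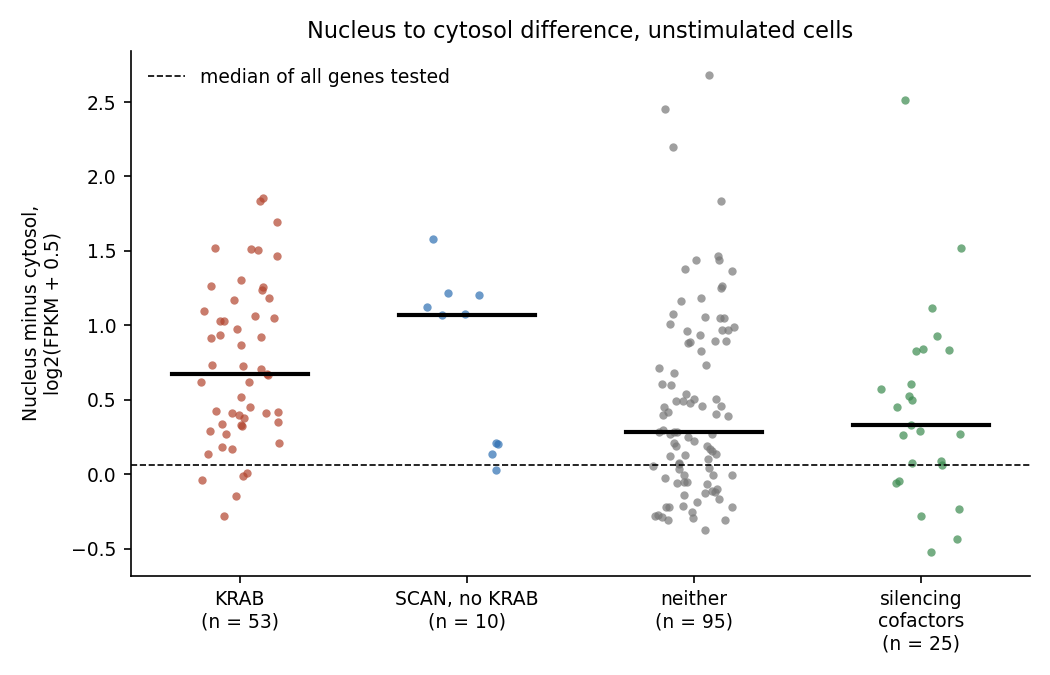
Difference between nucleus and cytosol in unstimulated cells on the log2(FPKM + 0.5) scale (vertical) for each zinc finger gene by domain group and for 25 genes of the silencing machinery; thick bars are medians and the dashed line is the median of all genes tested (0.06). The medians are 0.68 for KRAB, 1.07 for SCAN, 0.28 for neither domain and 0.33 for the silencing genes.

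The number of fingers was set against the difference between the fractions. The Spearman correlation across the 158 genes between the number of fingers and the difference was 0.24, and genes are not independent replicates and share the libraries. From 0 to 2 fingers 10 of 19 members were higher in the nucleus and 2 in the cytosol (median 0.23), from 3 to 5 fingers 10 and 3 of 23 (0.14), from 6 to 9 fingers 26 and 3 of 39 (0.68), from 10 to 13 fingers 25 and 3 of 42 (0.42) and with 14 or more 30 and 0 of 35 (0.73), beside 39% and 28% of all genes. The medians did not rise steadily with the number of fingers. Within the KRAB group the correlation was 0.02 and within the group with neither domain 0.24. Of the 7 members in the cluster with the most members (15 entries on chromosome 7, positions 29768551 to 30169741 of mm10), 5 were higher in the nucleus, with a median of 0.73.

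The 3 members with a described role in silencing were all higher in the nucleus, beside 39% of all genes. Zfp57, a KRAB protein that keeps imprints methylated, had 20.4, 19.8 and 23.9 FPKM in nuclei and 5.44, 6.30 and 5.15 in cytosol (1.83 ± 0.15; limma adjusted p = 2.46e-08). Zfp932, which represses endogenous retroviruses, had 20.3, 16.5 and 21.8 and 7.37, 6.25 and 5.89 FPKM (1.51 ± 0.12). In both genes the fractions were far apart, with no overlap. For Zfp445 the difference was 0.29 ± 0.06, which turned to -0.06 with median-ratio scaling. In the machinery these proteins recruit, 15 of 25 genes tested were higher in the nucleus and 4 in the cytosol, with a median of 0.33, beside 39% and 28% of all genes. With median-ratio scaling these counts were 11 and 8 (median 0.01), beside 25.8% and 51%. The largest difference was that of Chd4, the remodeller of the NuRD complex, with a mean of 72.6 FPKM in nuclei and 12.2 in cytosol (log2 difference 2.52). Fam208a of the HUSH complex (1.52), the heterochromatin protein gene Cbx5 (0.93) and Setdb1 (0.83) were higher in the nucleus too, and Cbx3 (-0.52) and Hdac2 (-0.43) in the cytosol. Trim28 itself had 32.5 and 33.5 FPKM and did not pass the test.

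Of 10 members with roles in neural development or neuronal function, 7 were higher in the nucleus and 0 in the cytosol, beside 39% and 28% of all genes, and with median-ratio scaling 5 and 1, beside 25.8% and 51%. Zfp462, a gene of neurodevelopmental disorder, had 10.2, 9.83 and 9.74 FPKM in nuclei and 4.28, 4.39 and 3.83 in cytosol (1.16 ± 0.09). The intellectual disability genes Zfp292 (1.07) and Zfp407 (1.06), the microcephaly gene Zfp335 (1.05) and the hindbrain regulator Zfp423 (1.05) differed by about as much. Zfp711, mutated in X-linked intellectual disability, differed by 0.45 and Zfp521 by 0.21, and the latter turned to -0.09 with median-ratio scaling and -0.24 with quantile normalization and lost its call when any 1 of 3 libraries was left out (0.16 without cytosol replicate 3, 0.20 without nucleus replicate 2 and 0.20 without nucleus replicate 3). Zfp365, Zfp24 and Zfp536 did not pass, with nuclear and cytosolic means of 35.5 and 32.3, 2.54 and 2.27, and 2.48 and 2.75 FPKM.

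Among 7 members that act on RNA or in translation, 3 were higher in the nucleus and 1 in the cytosol, and 3 of 7 is near the 39% of all genes. With median-ratio scaling the counts were 1 and 2, beside 25.8% and 51% of all genes. Zfp207 (0.90 ± 0.12), Zfp598 (0.48 ± 0.08), the ubiquitin ligase that senses collided ribosomes, and Zfp106 (0.46 ± 0.08), an RNA-binding protein needed by motor neurons, were the 3. Zfp622, a factor of late maturation of the large ribosomal subunit, was lower in the nucleus at -0.22, a call lost without cytosol replicate 1 (-0.17), nucleus replicate 1 (-0.18) or nucleus replicate 3 (-0.20). Nuclear and cytosolic means of the 3 that did not pass were 10.1 and 9.25 FPKM for Zfp326, 9.74 and 9.75 for Zfp346 and 6.85 and 5.62 for Zfp638. Of 8 general transcription factors and cofactors, 3 were higher in the nucleus, namely the SUMO ligase Zfp451 (1.44), Zfp219 (0.88) and Zfp318 (0.40), and 0 in the cytosol, again a share of higher genes near the 39% of all genes, and with median-ratio scaling the counts were 2 and 4. Zfp148, Zfp260, Zfp410, Zfp644 and the merged entry of Zfp91 did not pass.

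In bicuculline-treated cells 73 members were higher in the nucleus and 17 in the cytosol, beside 31.3% and 31.9% of all genes tested. The members' median was 0.21 and that of all genes -0.04. With median-ratio scaling the counts were 62 and 39, beside 23.4% and 49%, and with quantile normalization 59 and 41, beside 23.8% and 36.3%. The shift between the states is tested below as a difference of differences.

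Few members passed the test for bicuculline under triptolide. In nuclei 1 member rose and 1 fell, beside 0.986% and 0.824% of all genes, and with the replicate number as a block 6 rose and 2 fell, beside 7.72% and 5.39%. Zfp622 rose from 5.54, 6.31 and 5.75 to 6.99, 7.22 and 8.08 FPKM (0.32 ± 0.08, limma adjusted p = 0.0441). All its stimulated libraries stood above the unstimulated ones, which the choice of named genes required. Zscan26 fell from 12.9, 11.6 and 14.8 to 9.47, 9.64 and 8.80 FPKM (-0.47 ± 0.09; limma adjusted p = 0.0182). Without 1 of the libraries the nuclear count was 5 (leaving out bicuculline replicate 2) or 0 (bicuculline replicate 1 or 3, unstimulated replicate 1 or 3). Summed inhibitory neuron markers were 96.1 to 119 FPKM in unstimulated and 118 to 147 in bicuculline nuclei, and astrocyte markers 542 to 631 and 468 to 551. Their part in these differences was not tested.

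In the cytosol 9 members rose and 0 fell, beside 3.18% and 0.0915% of all genes, and with the block 36 rose and 0 fell, beside 14.5% and 0.795%. The median response of the members was 0.17 and that of all genes 0.08. With median-ratio scaling 0 members passed, beside 0.143% of all genes that rose and 0.0998% that fell, and with quantile normalization 0, beside 0.0141% and 0%. With the block and median-ratio scaling together 9 rose and 0 fell, beside 2.95% and 3.75%. Zfp316, a KRAB gene, rose from 1.91, 1.86 and 2.02 to 3.06, 2.90 and 2.94 FPKM (0.51 ± 0.09; limma adjusted p = 0.0146). Zscan26 rose from 5.98, 5.85 and 5.39 to 8.60, 7.77 and 8.61 FPKM (0.50 ± 0.09), and Zfp609, a partner of the cohesin loader Nipbl, from 4.57, 5.18 and 4.10 to 6.80, 6.69 and 6.28 FPKM (0.47 ± 0.09). In each of the 3 genes every bicuculline library stood above every unstimulated one, which the choice of named genes required. The others were Zfp827 (0.40), Zfp335 (0.38), Zfp598 (0.38), Zfp622 (0.37), Zfp384 (0.35) and Zfp46 (0.30), the last 3 named after their values were seen. These calls are near the threshold: without bicuculline replicate 1, 2 or 3 the count was 2, 3 and 0, and without unstimulated replicate 1 or 3 it was 1 and 0. Of the silencing machinery 3 of 25 genes rose and 0 fell, namely Atf7ip, Morc2a and Smarcad1.

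**Figure D3:**
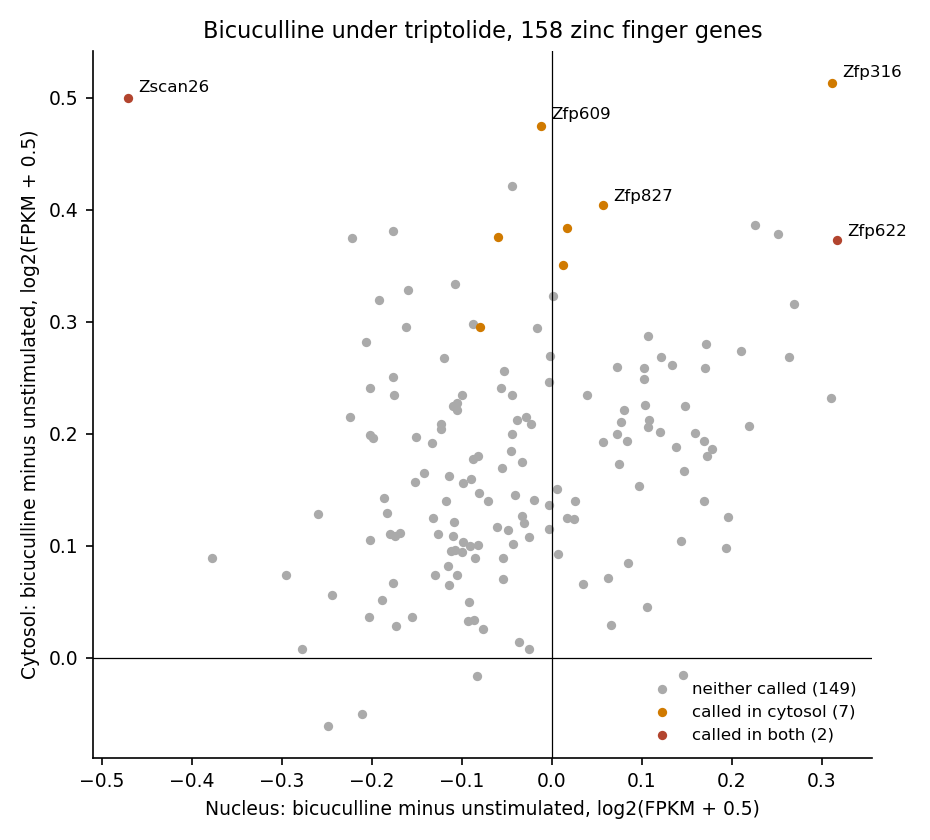
Bicuculline response of each of the 158 zinc finger genes in nuclei (horizontal) and cytosol (vertical) on the log2(FPKM + 0.5) scale, coloured by the calls of the test without a block. Zscan26 stands alone at the upper left, at -0.47 in nuclei and 0.50 in cytosol, and Zfp622 was called in both fractions at 0.32 and 0.37.

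In whole cells 0 members passed the limma test, beside 0.0141% of all genes that rose and 0.0211% that fell. With the block 9 members rose and 0 fell, beside 3.72% and 0.514%. The 3 with the smallest p did not pass without the block, and were Zfp341 at 1.65, 1.69 and 1.41 against 2.23, 2.43 and 2.33 FPKM (limma adjusted p = 0.0624, with the block 0.0115), Zfp316 (0.0857 and 0.0138) and Zfp622 (0.0875 and 0.0128). In Zfp341 the stimulated libraries lay above the unstimulated ones without overlap.

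The response in nuclei was then set against that in the cytosol in 1 test of the difference. Zscan26 was the 1 member that passed, with 0 differing the other way, beside 0.472% and 0.0845% of all genes. Its nuclear mean went from 13.1 ± 1.61 to 9.30 ± 0.444 FPKM (SD, n = 3) and its cytosolic mean from 5.74 ± 0.309 to 8.33 ± 0.482, and the whole cell means were 8.84 ± 0.736 and 8.50 ± 0.645. The nuclear response minus the cytosolic one was -0.97 ± 0.12 (SE; limma adjusted p = 0.00339). Without any 1 of the 12 libraries its adjusted p stayed at or under 0.0185, and the median of all genes in this comparison was -0.11. Zscan26 has a SCAN domain and 7 fingers, lies at chr13:21442183-21453727 and overlaps the transcripts 4930470G03Rik and Mir1896. The library kit keeps strand, and no source used here says whether the counting did.

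With the block 16 members passed with a lower response in nuclei than in cytosol and 0 with a higher one, beside 6.92% and 2.84% of all genes. Without the block, leaving out nucleus bicuculline replicate 2 gave 11. Among the 16 were Zfp609 (-0.49 ± 0.13; limma adjusted p = 0.104, with the block 0.00507), Zfp106 (-0.39; 0.132 and 0.01) and Zfp598 (-0.43; 0.0881 and 0.0128), named after their values were seen. In these 3 genes the nuclear mean was 9.48, 19.6 and 8.38 FPKM without and 9.43, 18.4 and 8.03 with bicuculline, and the cytosolic mean went from 4.62, 14.2 and 5.87 to 6.59, 17.5 and 7.75. With median-ratio scaling beside the block 5 members passed in this direction and 0 in the other, beside 1.75% and 6.65%. The members' median was -0.20, and with median-ratio scaling it was -0.08 beside 0.01 for all genes.

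**Figure D4:**
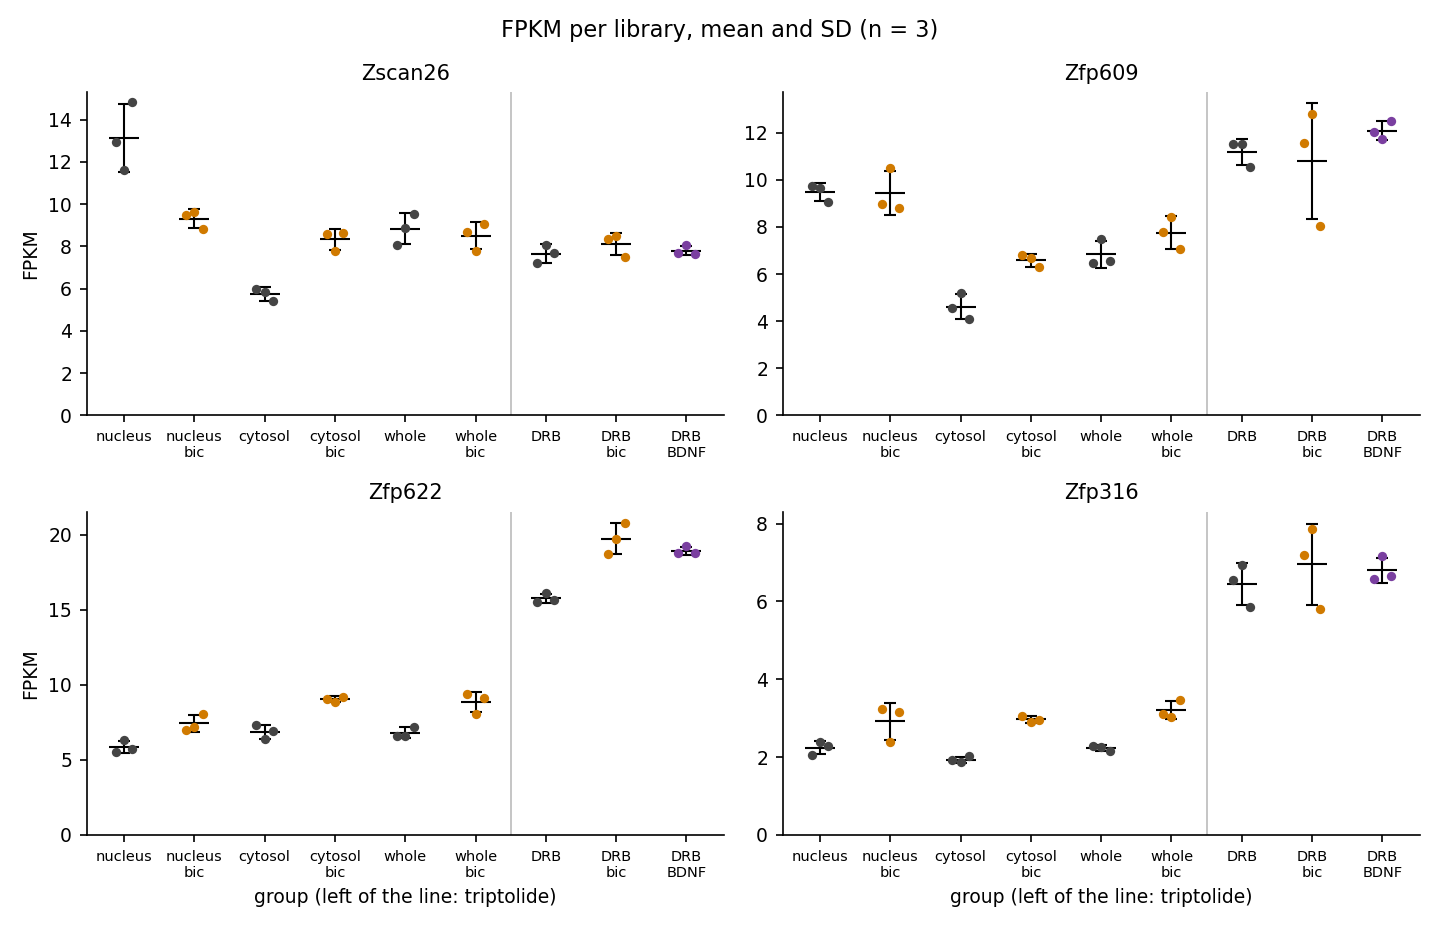
FPKM (vertical) of Zscan26, Zfp609, Zfp622 and Zfp316 in each library of the 9 groups (horizontal), with mean and SD of 3 libraries; grey is unstimulated, orange bicuculline and purple BDNF. Zscan26 lies at 13.1 and 9.30 FPKM in nuclei and at 5.74 and 8.33 in cytosol without and with bicuculline, and Zfp622 and Zfp316 are higher in every DRB library than in any triptolide library.

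Under DRB the same members were read in other libraries, which the rule did not use, and 155 of the 158 were tested among 13321 genes. Bicuculline changed 0 of them by the limma test, beside 0.308% of all genes that rose and 0% that fell. With the block 1 passed, beside 0.571% that rose and 0% that fell: Zfp622 stood at 15.5, 16.1 and 15.7 FPKM without and 18.7, 19.7 and 20.8 with bicuculline, with no overlap (0.31 ± 0.06; limma adjusted p = 0.107, with the block 0.0404). Zscan26 had 7.20, 8.06 and 7.70 FPKM without and 8.34, 8.47 and 7.51 with bicuculline, and these overlap. Arc, an activity gene of the same libraries, went from a mean of 0.924 to 29.7 FPKM.

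BDNF under DRB also changed 0 members by the limma test, beside 0.638% of all genes that rose and 0% that fell. With the block 4 rose and 0 fell, beside 1.46% and 0.0375%. These were Zfp623, at 2.47, 2.33 and 2.58 FPKM without and 3.41, 3.24 and 3.60 with BDNF (0.40 ± 0.08; limma adjusted p = 0.0936, with the block 0.0108), Zfp865 (0.42 ± 0.10; 0.27 and 0.01), Zfp869 (0.62 ± 0.12; 0.0766 and 0.0398) and Zfp622 (0.26 ± 0.06; 0.144 and 0.0481). In each of the 4 all BDNF libraries lay above all unstimulated ones. Zfp865 went from 6.34, 4.93 and 5.30 to 8.19, 6.92 and 7.48 FPKM, and 19.1% of its 50-base words occur in other genes. The largest difference of all was that of Zfp597, from 2.98, 3.14 and 2.79 to 6.26, 4.69 and 5.92 FPKM (0.81 ± 0.17), which passed in neither fit (limma adjusted p = 0.112, with the block 0.064). Zfp597 overlaps Naa60 and Zfp174. Zfp865 and, for this comparison, Zfp622 were named after their values were seen.

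BDNF against bicuculline, 2 groups that are each also compared with the same unstimulated libraries above, differed in 0 members by the limma test, beside 0.113% of all genes higher with BDNF and 0.015% higher with bicuculline. With the block 2 passed, beside 0.45% higher with BDNF and 0.0901% higher with bicuculline: Zfp865 at 5.83, 5.15 and 5.58 FPKM with bicuculline and 8.19, 6.92 and 7.48 with BDNF (0.41 ± 0.10; limma adjusted p = 0.55, with the block 0.0227), and Zfp623 at 2.61, 2.52 and 2.60 and 3.41, 3.24 and 3.60 FPKM (0.35 ± 0.08; 0.405 and 0.0454). In both genes the BDNF libraries stood above the bicuculline ones without overlap. Zfp622 did not pass the test between the stimuli, at 19.7 and 18.95 FPKM (-0.06 ± 0.06).

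**Figure D5:**
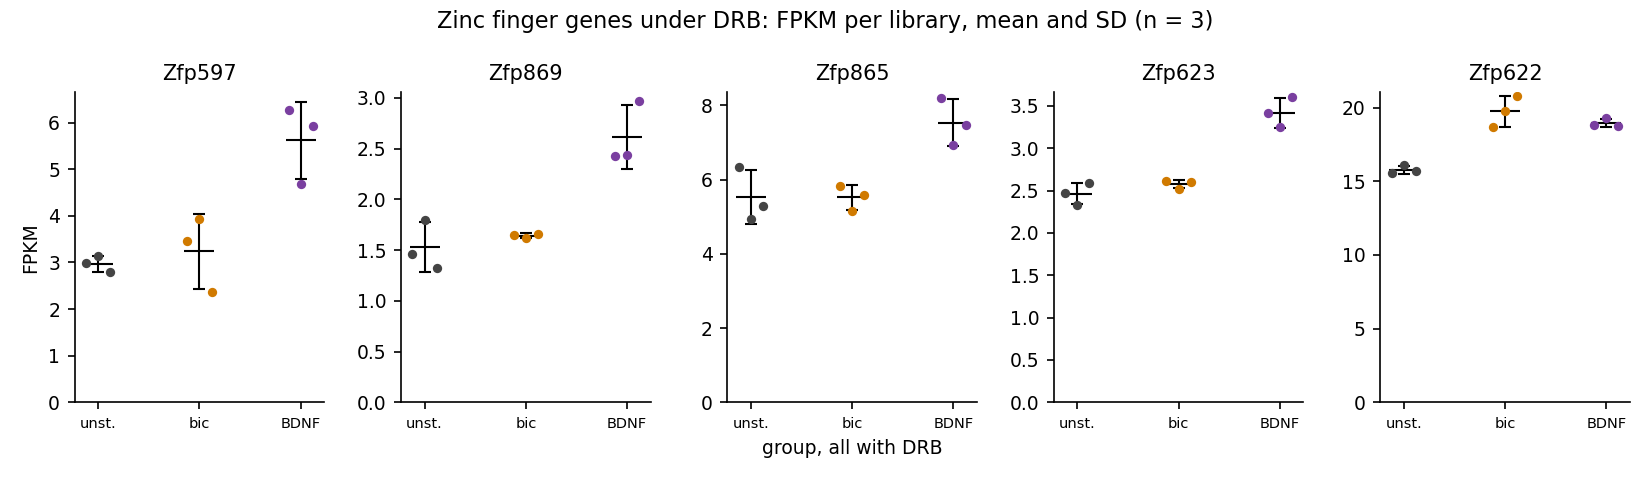
FPKM (vertical) of 5 zinc finger genes in the 9 DRB libraries, unstimulated, with bicuculline and with BDNF (horizontal), with mean and SD of 3 libraries. Zfp597, Zfp869, Zfp865 and Zfp623 are highest with BDNF, at means of 5.62, 2.61, 7.53 and 3.42 FPKM, and Zfp622 is higher with either stimulus.

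Levels in unstimulated DRB cells and unstimulated triptolide whole cells are set side by side without a test, since inhibitor, its duration and the cultures cannot be told apart. On the log2(FPKM + 0.5) scale the members' median ratio of DRB to triptolide was 0.40, beside 0.28 for 12909 genes tested in both, with 0.05 in the KRAB group and 0.49 in the group with neither domain. Of the members, 17 were at least 2-fold higher under DRB and 3 at least 2-fold lower on that scale, beside 4.09% and 2.21% of the 12909 genes. The ends were Zfp608, with 9.41, 7.84 and 8.76 FPKM under DRB and 1.54, 1.75 and 1.66 under triptolide, and Zfp948, with 0.678, 0.996 and 0.796 and 3.05, 3.59 and 3.57. Zfp362 (13.3 and 3.76 FPKM), Zfp865 (5.52 and 1.70) and Zfp316 (6.45 and 2.23) were among the higher and Zfp932 (6.69 and 12.5) among the lower. These genes were chosen after their values were seen. The members' share of all FPKM was 0.289 to 0.341% in the 9 DRB libraries and 0.224 to 0.228% in the 3 unstimulated triptolide whole cell libraries. The summed oligodendrocyte lineage markers were 149 to 177 FPKM in unstimulated DRB cells and 64.3 to 68.8 in unstimulated triptolide whole cells, and their part in these differences was not tested.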

How the data were processed

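The table deposited by the authors gives FPKM per gene for the 27 libraries. Per the submitters' processing notes the reads were aligned with STAR 2.4.0 to mm10, with FastQC, Picard and SAMtools also named; per the labels' protocols libraries were made from 200 ng of total RNA with a stranded mRNA kit. No source used here gives the counting program, its use of strand or its treatment of reads that match several genes. Depth was recovered from the steps of low values and covers counting error only. Values were tested as log2(FPKM + 0.5) with limma 3.58.1 in R 4.3.3 (trend and robust), in separate fits for the 18 triptolide and the 9 DRB libraries, over genes with at least 1 FPKM in at least 3 libraries of the fit, with p adjusted over all genes tested (Benjamini-Hochberg) and called under 0.05. Fold changes on this scale understate those of low genes. The script for this test was first tested on simulated data.

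Replicate numbers come from the sample titles. Deviations from group means correlated by 0.256 to 0.692 (45 pairs, triptolide) and 0.463 to 0.902 (9 pairs, DRB) between libraries of the same number, all above 0.1, so the numbers were taken to pair the samples; the results reported first are from the fit without the block, and the block is an alternative. Other alternatives were pseudocounts of 0.1 and 1, no filter, median-ratio scaling, quantile normalization, other member thresholds and leaving out each library. Named were the 4 members with the highest level, the up to 6 largest differences in each direction per comparison among called members with a mean of at least 2 FPKM and no overlap between groups, the 3 with the smallest p where 0 passed, the 3 genes on each side of the threshold, and members of role lists drawn from textbook knowledge. The members and lists were chosen with earlier results of these data known. Domains, fingers and shared words were found by patterns in GENCODE M21 transcripts of mm10; 0 sample columns of the table were left unused.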

Additional observations from a re-analysis of the deposited data

Results flagged for a closer look

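Zscan26 responded to bicuculline in opposite directions in the fractions of triptolide-treated cells. The nuclear response minus the cytosolic one was -0.97 on the log2(FPKM + 0.5) scale (limma adjusted p = 0.00339 by the test of the difference itself), with all 3 nuclear libraries lower and all 3 cytosolic libraries higher than the unstimulated ones. The difference passed in all 12 fits that left out 1 library. In the separate tests the nuclear fall lost its call in 4 of 6 such fits (limma adjusted p up to 0.0724). The cytosolic rise lost its call in 2 of 6 (limma adjusted p up to 0.0779). The lack of overlap in each fraction was a condition for naming the gene.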

How the results depend on the processing

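The number of members that differed between nucleus and cytosol in either direction stayed within 1.5 times of that reported under each alternative, also with the replicate block, but the balance of directions did not: the members higher in the cytosol went from 11 to 39 with median-ratio scaling and 47 with quantile normalization in unstimulated cells, and from 17 to 39 and 41 in bicuculline cells. Without 1 library the numbers in either direction were 105 to 110 in unstimulated and 84 to 91 in bicuculline cells. The bicuculline counts moved. Calls over all genes moved as well: with the block those in nuclei went from 0.986% to 7.72% that rose and from 0.824% to 5.39% that fell. Some counts that follow are given without shares of all genes. These show only how the calls depend on the processing and are no result about the members. For nuclei (2 members) the count was 1 with no filter, 4 with quantile normalization, 8 with the replicate block, 10 with the block and median-ratio scaling, and 0 to 5 without 1 library. For the cytosol (9) it was 4 with no filter, 0 with median-ratio scaling, 0 with quantile normalization, 36 with the replicate block, and 0 to 9 without 1 library. In the cytosol 14.5% of all genes rose and 0.795% fell with the block. With median-ratio scaling 0.143% rose and 0.0998% fell, and with quantile normalization 0.0141% and 0%. For whole cells (0) the count was 9 with the replicate block, beside 3.72% of all genes that rose and 0.514% that fell. It was 8 with the block and median-ratio scaling, and 0 whichever library was left out. For the difference between the responses of the fractions (1) the count was 16 with the replicate block, beside 6.92% of all genes lower and 2.84% higher. It was 5 with the block and median-ratio scaling, beside 1.75% lower and 6.65% higher, and 1 to 11 without 1 library. Under DRB 0 members passed in each comparison, also whichever library was left out. There the replicate block gave 1 for bicuculline, 4 for BDNF and 2 for BDNF against bicuculline. Of all genes 0.571%, 1.46% and 0.45% were then higher and 0%, 0.0375% and 0.0901% lower. With median-ratio scaling beside the block the counts for the last 2 comparisons were 3 and 2. The cause of these changes was not tested, and fewer samples remained where a library was left out. A member threshold of 4 FPKM left 95 members. Zfp445 between nucleus and cytosol turned to -0.0602 with median-ratio scaling, with and without the replicate block, and Zfp521 to -0.0941 with that scaling, with and without the block, and to -0.238 with quantile normalization. Leaving out 1 library kept direction and call in 413 of the fits of single genes, ended the call in 59 and added a call in 2. Low levels limit the precision: 94 members lie under 5 FPKM, where a change of level is understated on the scale used.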

Other observations

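Zinc finger entries outside the membership and related families were read in the same fit of nucleus against cytosol in unstimulated cells. Of the 188 Zfp and Zscan entries under the threshold 76 could be tested, and 52 were higher in the nucleus and 4 in the cytosol, with a median log2 difference of 0.49, beside 101 and 11 of 158 members. An entry could be tested with at least 1 FPKM in at least 3 of the 18 triptolide libraries. Low entries can reach this through nuclear libraries alone, so this filter can favour nuclear genes as the member rule does. Of 18 Zbtb genes, which carry a BTB domain beside their fingers, 9 were higher in the nucleus and 2 in the cytosol. Of 7 Zkscan genes, which carry a SCAN and often a KRAB domain, 5 and 0 were. Of 11 Zc3h genes, whose CCCH fingers bind RNA, 6 and 2 were. The share of all genes tested was 39% higher and 28% lower, and no test between families was made. The directions depended on the scaling: with quantile normalization 12 of the 76 entries were higher in the nucleus and 29 in the cytosol (median -0.12), and with median-ratio scaling 38 and 10 of 73 (median 0.24). With median-ratio scaling the counts were 8 and 6 for Zbtb, 3 and 2 for Zkscan and 3 and 4 for Zc3h genes, and with quantile normalization 8 and 7, 2 and 2, and 4 and 3. Of all genes tested, 25.8% and 51% were higher in the nucleus and the cytosol with median-ratio scaling, and 27.8% and 41.1% with quantile normalization.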
